A study of Mus musculus with 16 samples.

Results

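The hypoxia response and glycolysis genes of the mouse were followed over 16 expression arrays of B cells and of myeloma-like tumors. Of 35 genes chosen by name, 32 had at least 1 probe set annotated to that gene alone, and these 32 genes carried 71 probe sets. Each gene was read from its brightest probe set, by the mean of the 16 arrays. Eno1, Gpi1 and Bnip3l were not analysed here, the last because its probe sets were annotated together with a pseudogene. The 32 genes stood among 18162 named genes on the array.

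The comparison was between 3 groups of samples from C57BL/6 mice. Splenic B cells came from 5 nontransgenic samples and 5 Eμ-xbp-1s samples, both taken at 20 weeks and enriched on magnetic beads for B220. A further 6 samples were Eμ-xbp-1s MM, the multiple myeloma-like disease that arises in older transgenic mice. The methods name these only as myeloma tumors, without their site or age. Age, B220 selection and possibly tissue differ between MM and B cells along with the disease, and their parts cannot be told apart. The Eμ-xbp-1s transgene carries the cDNA of the spliced form of XBP-1, a transcription factor of the unfolded protein response and of plasma cell differentiation. It is driven by an immunoglobulin VH promoter with the Eμ enhancer, which is also active in some T cells, and is followed by a membrane-bound eGFP read from the same transcript. Transgenic mice came from 2 founder lines, the line of each sample is not given, and no sorting step is named for the MM samples. Whether each of the 6 MM samples is a different mouse is not stated, and the p-values measure only the spread between these samples.

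Cells short of oxygen stabilise the α subunits of the hypoxia-inducible factors (HIF), which are otherwise hydroxylated by prolyl hydroxylases and degraded. HIF pairs with ARNT, binds DNA at a short core, and raises transcription of glucose transporters, nearly every step of glycolysis, lactate dehydrogenase, the kinase that closes the pyruvate dehydrogenase gate, mitophagy receptors and angiogenic factors. The same glycolytic genes also respond to MYC and to growth signals, and a dividing lymphocyte raises glycolysis without a shortage of oxygen. Multiple myeloma grows in bone marrow, a tissue of low oxygen tension, and angiogenesis is a known part of the disease.

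A form of the HIF core, ACGTG on either strand, was sought in the 300 bases around the start of each gene. The window took 250 bases before the start and 50 after it (RefSeq, GRCm38.p6). Of the 35 genes, 31 had such a promoter in the table and 22 of these held at least 1 match (71%), against 21.8% of the 27025 genes with a promoter. Of the promoters themselves, 19.6% of 32851 held a match. Both shares are a description, since promoters also differ in base composition and in the number listed per gene. Shown are 4 promoters, each holding 2 or more matches, of genes that were higher in MM than in nontransgenic B cells. They are written 5′ to 3′ along the gene, with each ACGTG or its reverse complement CACGT in capitals. The palindrome CACGTG is a match on both strands and was counted as 2 overlapping matches.
Bnip3: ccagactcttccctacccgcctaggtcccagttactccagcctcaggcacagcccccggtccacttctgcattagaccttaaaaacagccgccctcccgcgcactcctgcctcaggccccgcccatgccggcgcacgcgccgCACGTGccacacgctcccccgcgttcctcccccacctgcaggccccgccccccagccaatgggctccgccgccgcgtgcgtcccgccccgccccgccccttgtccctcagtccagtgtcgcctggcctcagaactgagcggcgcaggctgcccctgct
Ldha: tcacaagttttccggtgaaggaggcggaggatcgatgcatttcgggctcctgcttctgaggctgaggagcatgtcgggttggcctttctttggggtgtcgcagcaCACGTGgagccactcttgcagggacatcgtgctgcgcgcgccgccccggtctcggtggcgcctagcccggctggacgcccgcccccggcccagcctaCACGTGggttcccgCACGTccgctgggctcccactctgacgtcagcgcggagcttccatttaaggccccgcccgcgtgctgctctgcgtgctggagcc
Pgk1: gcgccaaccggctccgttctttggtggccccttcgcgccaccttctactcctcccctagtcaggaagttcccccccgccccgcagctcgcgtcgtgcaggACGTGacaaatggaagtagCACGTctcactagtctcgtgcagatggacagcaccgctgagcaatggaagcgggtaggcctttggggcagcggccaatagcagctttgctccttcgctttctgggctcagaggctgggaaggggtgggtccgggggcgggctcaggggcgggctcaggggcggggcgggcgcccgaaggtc
Hk2: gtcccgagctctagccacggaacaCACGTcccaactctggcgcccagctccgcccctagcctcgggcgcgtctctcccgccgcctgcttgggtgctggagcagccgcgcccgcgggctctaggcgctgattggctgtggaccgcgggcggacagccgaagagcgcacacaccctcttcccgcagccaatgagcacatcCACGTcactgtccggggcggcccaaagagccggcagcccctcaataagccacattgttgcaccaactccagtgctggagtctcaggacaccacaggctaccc

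The Bnip3 window lay at chr7:138909457-138909756 on the minus strand and held a single palindrome, at -108 from the start. Ldha, at chr7:46845554-46845853 on the plus strand, held palindromes at -145 and -48 and a further core at -34. A second listed Ldha promoter, at chr7:46846832-46847131, held 0 matches and is not shown. In Pgk1, at chrX:106186850-106187149 on the plus strand, 2 cores on opposite strands stood at -150 and -131. The Hk2 window, at chr6:82774405-82774704 on the minus strand, held cores at -226 and -52. A match is a run of letters and not a measured binding site of HIF or of any other factor. It did not separate the genes that were higher in MM from the others, since 6 of the 7 higher genes with a promoter and 16 of the 22 other measured genes had one.

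Overall brightness was even between arrays, and RNA quality and cell content were not. The median intensity of all probe sets was between 69.1 and 82.9 on every array. The ratio of the 5′ to the 3′ control probe set of Gapdh, which falls when RNA is degraded, was between 1.08 and 1.15 on the nontransgenic arrays. It was 0.414 and 0.508 on Eμ-xbp-1s B cell replicates 3 and 4, and 0.784, 0.667 and 0.717 on MM replicates 4, 5 and 6. Total Xbp1 signal did not pass the test between any of the groups, with means of 2067 ± 250.3 (SD, n = 5) for nontransgenic and 2603 ± 460.5 (SD, n = 5) for Eμ-xbp-1s B cells and 2650.4 ± 1404 (SD, n = 6) for MM. Its probe set was not shown to be specific for the spliced form. T cell markers passed the test as higher in Eμ-xbp-1s than in nontransgenic B cells for 7 of 7 tested, and neutrophil markers for 7 of 9. Of all genes, 3.26% were higher in that comparison. On each nontransgenic array 1 to 3 of 7 T cell and 3 to 5 of 10 neutrophil markers were at or under 50, and Cd3d was at 57.8 to 81.1. Markers so low there entered the test through their Eμ-xbp-1s arrays, which favours a call of higher. Stromal markers passed as higher in MM for 5 of 7 against Eμ-xbp-1s and 6 of 7 against nontransgenic B cells, and so did markers of dividing cells, 5 of 7 and 6 of 7. Of all genes, 1.49% and 4.65% were higher in these comparisons. Only 1 of the 7 stromal markers passed the filter between the B cell groups. The others entered the MM tests with the help of their MM arrays, which favours a call of higher. Of 10 macrophage and monocyte markers, 4 passed as higher in Eμ-xbp-1s than in nontransgenic B cells, and 2 of 9 tested passed as higher in MM than in nontransgenic B cells (7 by unadjusted p under 0.05). Their summed intensity was 3132 to 5109 in nontransgenic B cells, 6938 to 14176 in Eμ-xbp-1s B cells and 9066 to 39909 in MM, where replicate 6 was lowest. The part of macrophages and monocytes in the differences of the list was not tested. The B cell marker Cd79a was at 6241 to 7662 in nontransgenic B cells and 2777 to 5550 in Eμ-xbp-1s B cells, and in MM at 422 and 62.8 on replicates 4 and 5 against 2202 to 3346 on the others. Of 7 plasma cell markers, 6 were tested in each MM comparison and 0 passed as higher, while 1 passed as lower than in nontransgenic B cells. Their median log2 difference was -0.45 from Eμ-xbp-1s and -0.20 from nontransgenic B cells. The plasma cell marker Sdc1 was at 110 to 264 in MM and 141 to 246 in nontransgenic B cells.

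**Figure D1:**
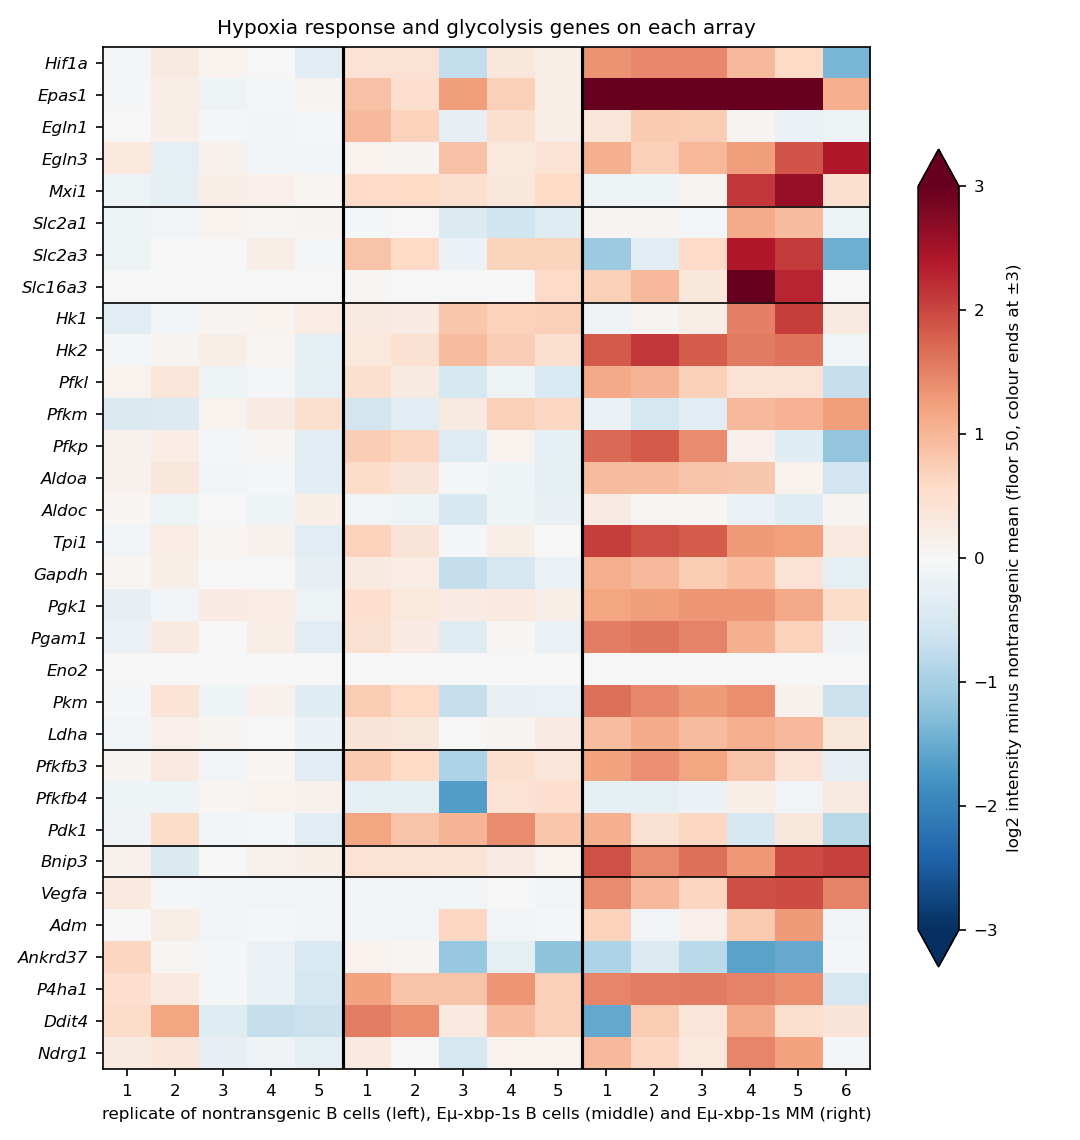
Level of the 32 measured genes (rows, grouped by role) on each of the 16 arrays (columns). Colour is the log2 intensity minus the mean of the 5 nontransgenic arrays, with values under 50 set to 50 and colour ending at ±3; red is higher. Epas1, Bnip3 and Vegfa are red on all 6 MM arrays, most glycolytic enzymes are red on MM replicates 1 to 4 and pale on replicate 6, and Slc2a3, Slc16a3, Mxi1 and Hk1 are red on MM replicates 4 and 5.

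The comparison of MM with nontransgenic B cells had the most genes of the list past the test. Of the 32 genes, 29 passed the filter on low values and were tested, 8 were higher in MM and 0 were lower (limma, Benjamini-Hochberg adjusted p under 0.01 over all probe sets tested). The 8 were Epas1, Egln3, Hk2, Tpi1, Pgk1, Ldha, Bnip3 and Vegfa. They made up 27.6% of the tested genes of the list, where 4.65% of all genes tested were higher in MM and 4.76% were lower. Of the 8, Epas1, Egln3 and Vegfa entered the test only through their MM arrays and so had to lie higher in MM, and the count is a description. At an unadjusted p under 0.05, 14 were higher and 1, Ankrd37, was lower. The share of all genes at that level was not counted, in this or the other comparisons. The groups did not overlap, with MM the higher, for 7 of the 29, against 7.64% of all genes. The median log2 difference was 0.74 over the tested genes of the list and 0.01 over all genes tested. In whole samples such as these, a change in the RNA of a given cell and a change in the share of cells that carry it cannot be told apart.

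Against Eμ-xbp-1s B cells the MM samples differed in fewer of these genes. Epas1, Bnip3 and Vegfa were higher in MM and 0 of the 29 tested were lower, so 10.3% were higher, where the shares of all genes were 1.49% higher and 1.67% lower. Epas1 and Vegfa had again entered the test only through MM. By unadjusted p under 0.05 the counts were 12 and 1, the lower one being Pdk1. MM lay above Eμ-xbp-1s B cells without overlap for 3 genes, Pgk1, Bnip3 and Vegfa, against 4.36% of all genes. The median log2 difference was 0.59, against 0.01 over all genes.

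Between Eμ-xbp-1s and nontransgenic B cells, both taken at 20 weeks, 26 of the 32 genes were tested, and 1, Pdk1, was higher in the transgenic cells. This was 3.85% of them, close to the 3.26% of all genes that were higher. None was lower by limma, with 0.192% lower among all genes, and none was lower at an unadjusted p under 0.05 either, where 9 were higher. Without overlap, 5 of the 26 lay higher in the transgenic cells, Mxi1, Hk1, Hk2, Pdk1 and P4ha1, against 6.54% of all genes. The median log2 difference was 0.19, against -0.02 over all genes. The MM comparisons share their arrays with this one, so the 3 sets of values are not independent of each other.

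**Figure D2:**
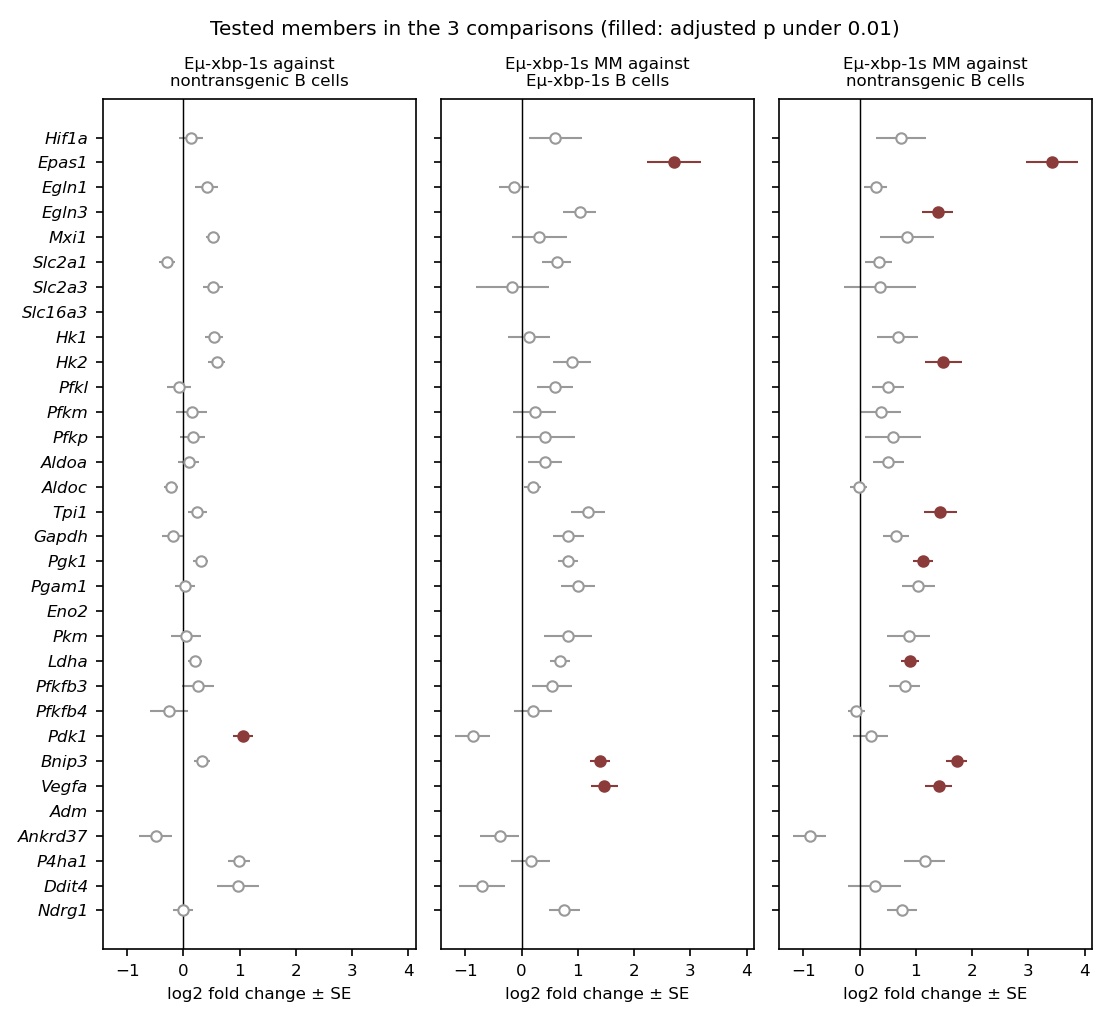
Log2 fold change ± SE from limma for each tested gene of the list in the 3 comparisons; genes with no point were not tested there. Filled red points had an adjusted p under 0.01. Epas1 stands furthest from 0 in both MM comparisons (2.70 and 3.41), and Pdk1 is the only filled point of the B cell comparison (1.06).

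Among the regulators, Epas1 changed most. Epas1 encodes HIF-2α, which is known from endothelium and from cells under long hypoxia. Its intensity was 53.8, 63.8, 48.2, 53.0 and 58.5 on the nontransgenic arrays. It was 103, 78.9, 133, 91.7 and 63.4 in Eμ-xbp-1s B cells. In MM it was 827, 733, 1056, 874, 653 and 119 on replicates 1 to 6. The first 5 MM arrays were thus far above all B cell arrays, and replicate 6 was above the nontransgenic arrays and within the range of the Eμ-xbp-1s arrays. The log2 difference was 3.41 ± 0.46 (SE, adjusted p = 0.000404 by limma) from nontransgenic B cells and 2.70 ± 0.48 (adjusted p = 0.00524) from Eμ-xbp-1s B cells. Without MM replicate 6 the second difference was 3.17 ± 0.22. The call against Eμ-xbp-1s B cells was lost in 8 of 11 fits that left out a single array, at an adjusted p of up to 0.0183, and with a floor of 100 (adjusted p = 0.0101). That floor lowered the difference from nontransgenic B cells to 2.57 without ending the call. Epas1 passed the filter in these comparisons through its MM arrays, was not tested between the B cell groups, and its other probe set, with means of 108 in nontransgenic B cells and 123 in MM, did not pass (log2 difference 0.18, adjusted p = 0.497).

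Stroma and endothelium are tissues where Epas1 is known to be active. Of stromal markers, 6 of 7 tested passed as higher in MM than in nontransgenic B cells, where 4.65% of all genes did. Of endothelial markers, 1 of 6 passed there, with 3 higher and 1 lower by unadjusted p under 0.05. Against Eμ-xbp-1s B cells 0 of 5 endothelial markers passed, with 3 higher and 0 lower by unadjusted p under 0.05. The median log2 difference of the 6 from nontransgenic B cells was 0.88. Single endothelial markers went both ways. Pecam1 was at 183 to 316 in nontransgenic B cells and 49.7 to 212 in MM, and Kdr at 106 to 132 and 145 to 396. The summed intensity of 7 stromal markers was 299 to 480 in nontransgenic B cells, 320 to 436 in Eμ-xbp-1s B cells and 4437 to 10686 in MM, and 4 or 5 of the 7 were at or under 50 on each B cell array. The summed intensity of 6 endothelial markers was 543 to 702, 512 to 853 and 529.5 to 1545 in the same order. Among the MM arrays, replicate 6, on which Epas1 was lowest, had the lowest endothelial level and the lowest stromal sum. By the mean log2 intensity of the stromal markers replicate 5 was lower, at 8.71 against 8.76, and the collagen gene Col3a1 was the second highest of MM on replicate 6 (802). Whether stromal or endothelial cells carried the Epas1 signal was not tested.

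Hif1a, which encodes HIF-1α, the subunit found in nearly all cells and regulated mainly at the level of the protein, did not pass the test. It was at 729, 907, 806, 742 and 607 in nontransgenic B cells. Eμ-xbp-1s B cells gave 1022, 1008, 453, 955 and 857. The MM arrays gave 1923, 2028, 2048, 1471, 1136 and 290.3. Replicates 1 to 5 of MM were above every B cell array and replicate 6 was below every one of them. The log2 difference of MM from nontransgenic B cells was 0.74 ± 0.44 (adjusted p = 0.254), and without replicate 6 it was 1.16 ± 0.19 (adjusted p = 0.00144).

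Egln3 encodes a prolyl hydroxylase that marks HIF-α for degradation and is itself a HIF target. It was at 74.8, 44.7, 66.0, 56.6 and 57.4 in nontransgenic B cells and at 64.7, 63.7, 111, 75.5 and 80.3 in Eμ-xbp-1s B cells. In MM it was at 127, 98.7, 121, 145, 223 and 320. Here replicate 6 was the highest array and not the lowest. MM was above nontransgenic B cells with no overlap (log2 difference 1.39 ± 0.28, adjusted p = 0.00455), a call lost when any 1 nontransgenic array was left out (adjusted p up to 0.0161). The call was also lost with quantile normalization (adjusted p = 0.0126) and with a floor of 100, where the log2 difference was 0.67 (adjusted p = 0.103). Against Eμ-xbp-1s B cells the difference was 1.03 ± 0.29 (adjusted p = 0.0436), short of the threshold, and its dimmer probe set passed in neither comparison. Like Epas1, Egln3 passed the filter through its MM arrays.

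Egln1, the main oxygen-sensing prolyl hydroxylase, was at 244 to 298 in nontransgenic B cells, 219 to 506 in Eμ-xbp-1s B cells and 228 to 450 in MM, and passed no test. Mxi1, a MAX partner that opposes MYC and is induced by HIF, was at 224 to 310 in nontransgenic B cells and at 343 to 410 in Eμ-xbp-1s B cells. Those ranges did not overlap, and the log2 difference of 0.52 ± 0.13 had an adjusted p of 0.0296. In MM it was uneven, and is described with the genes that were so.

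**Figure D3:**
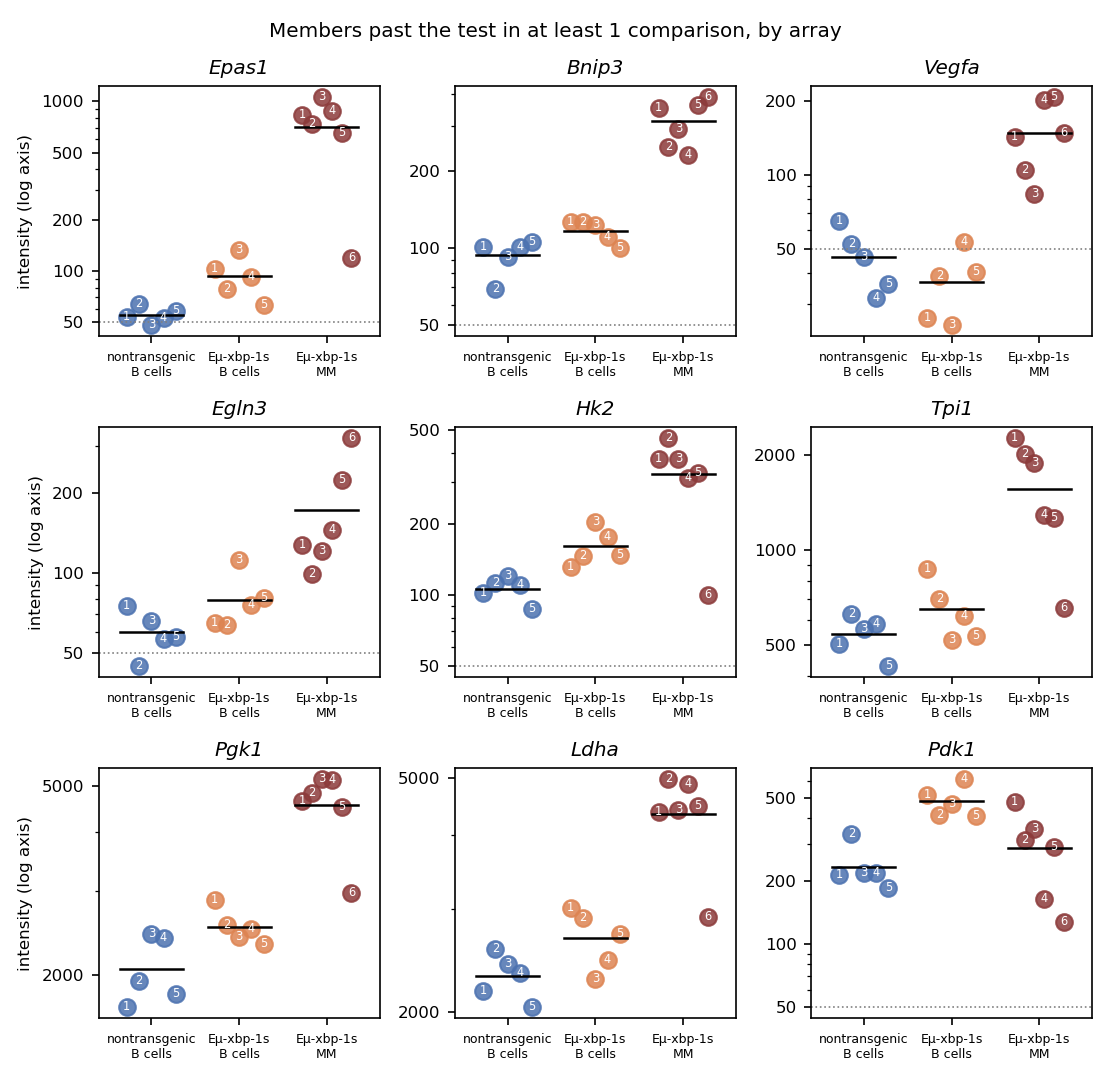
Intensity of the 9 genes past the test in at least 1 comparison, by array (log axis). Each point is an array, numbered by its replicate, a black line marks each group's mean and a dotted line, where drawn, the floor of 50. MM replicate 6 lies near or within the B cell range for Epas1 (119), Hk2 (99.8) and Tpi1 (657), and is the highest MM array for Egln3 (320) and Bnip3 (386).

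Bnip3 was the 1 gene of the list to pass in both MM comparisons in every fit that left out a single array. BNIP3 is a receptor in the outer mitochondrial membrane that directs mitochondria to autophagy, and its gene is a classical HIF target. Its intensity was 101, 69.0, 92.5, 101 and 105 in nontransgenic B cells. In Eμ-xbp-1s B cells it was 126, 126, 123, 109.8 and 99.4, and in MM 350.0, 248, 292, 229.8, 362 and 386. Every MM array stood above every B cell array, replicate 6 highest among them. The log2 difference was 1.72 ± 0.18 from nontransgenic B cells (adjusted p = 6.94e-05), a 3.30-fold higher level. It was 1.40 ± 0.18 from Eμ-xbp-1s B cells (adjusted p = 0.000986), or 2.63-fold. In 11 of 11 fits without a single array both calls stood, with adjusted p up to 0.000416 and 0.00489. Without both Eμ-xbp-1s B cell replicates 3 and 4, whose RNA was poorest by the Gapdh ratio, the second adjusted p was 0.0125 at a log2 difference of 1.40.

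Vegfa, the main angiogenic growth factor, was near the floor in B cells. It was at 65.2, 52.4, 46.3, 31.7 and 36.0 in nontransgenic B cells and at 26.2, 38.7, 24.6, 53.3 and 40.4 in Eμ-xbp-1s B cells. The MM arrays gave 143, 104, 83.6, 202, 207 and 148. Both B cell groups lay below the lowest MM array, and 3 and 4 of their 5 arrays were at or under 50. MM was at least 2.64-fold higher than nontransgenic B cells (log2 difference at least 1.40 ± 0.23, adjusted p = 0.00161) and at least 2.78-fold higher than Eμ-xbp-1s B cells (log2 difference at least 1.47 ± 0.23, adjusted p = 0.00297). With a floor of 100, which lies above every B cell value and above MM replicate 3, both calls were lost at a log2 difference of 0.53 (adjusted p = 0.0796 and 0.122). Vegfa passed the filter through its MM arrays alone. Against Eμ-xbp-1s B cells the call was lost without any 1 of their replicates 1, 2 and 4 (adjusted p up to 0.0109), and its other probe set was below the filter.

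The glycolytic enzymes, 14 on the array, were the largest class of the list. In each comparison 13 were tested, and 4 of them, Hk2, Tpi1, Pgk1 and Ldha, passed as higher in MM than in nontransgenic B cells. By limma 0 passed against Eμ-xbp-1s B cells, with 6 higher by unadjusted p under 0.05, and 13 of 13 had a positive log2 difference, with a median of 0.69 and a range from 0.13 to 1.19. Between the B cell groups 10 of 13 were positive, with a median of 0.15, 0 passed by limma, and 3 were higher by unadjusted p under 0.05. The mean log2 intensity of the 14 enzymes was 8.93 to 9.18 on the nontransgenic arrays and 8.99 to 9.41 on the Eμ-xbp-1s arrays. On MM replicates 1 to 5 it was 10.07, 10.05, 9.95, 9.94 and 9.72, and on replicate 6 it was 9.01, within the B cell range.

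Hk2 encodes the inducible hexokinase that commits glucose to glycolysis. It was at 102, 112, 119.8, 110.5 and 87.3 in nontransgenic B cells, at 131, 146, 204, 177 and 148 in Eμ-xbp-1s B cells, and at 376, 460.5, 375, 312, 329 and 99.8 in MM. The Eμ-xbp-1s arrays were all above the nontransgenic arrays (log2 difference 0.59 ± 0.15, adjusted p = 0.0342, short of the threshold), and 5 of the 6 MM arrays were above both. MM differed from nontransgenic B cells by 1.48 ± 0.33 on the log2 scale (adjusted p = 0.00805). This call was lost in 10 of 11 fits that left out an array, at an adjusted p of up to 0.0245, and with a floor of 100 (adjusted p = 0.0109), and became stronger in the fit without MM replicate 6, at 1.80 ± 0.15 (adjusted p = 1.64e-05).

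Pgk1, phosphoglycerate kinase, makes the first ATP of the pathway. Its intensity was 1717, 1943, 2437, 2391 and 1831 in nontransgenic B cells. It was 2879, 2546, 2406, 2507 and 2322 in Eμ-xbp-1s B cells and 4650.5, 4834, 5153, 5133, 4512 and 2973 in MM. All MM arrays were above all B cell arrays, with replicate 6 nearest to them. MM was higher than nontransgenic B cells by 1.13 ± 0.18 on the log2 scale (adjusted p = 0.00103), and all 3 Pgk1 probe sets passed that test, 2 of which can also bind similar transcripts by their design. The difference from Eμ-xbp-1s B cells was 0.82 ± 0.17, just short of the threshold (adjusted p = 0.0121).

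Ldha encodes the lactate dehydrogenase subunit that turns pyruvate into lactate. It was at 2172, 2562, 2419, 2329.7 and 2043 in nontransgenic B cells. Eμ-xbp-1s B cells gave 3005, 2894, 2278, 2451 and 2719, and MM gave 4371, 4967, 4406, 4886, 4485 and 2904. In all, 5 MM arrays were above all B cell arrays and replicate 6 was within the Eμ-xbp-1s range. The log2 difference of MM was 0.89 ± 0.16 from nontransgenic B cells (adjusted p = 0.00248) and 0.69 ± 0.18 from Eμ-xbp-1s B cells (adjusted p = 0.0277). The first call stood in 11 of 11 fits without an array, with adjusted p up to 0.0098.

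Tpi1, triose phosphate isomerase, was at 503, 625, 561, 584 and 429 in nontransgenic B cells. It was at 872, 698, 521, 618 and 536 in Eμ-xbp-1s B cells and at 2263, 2022, 1892, 1297, 1266 and 657 in MM. MM exceeded nontransgenic B cells with no overlap (log2 difference 1.44 ± 0.28, adjusted p = 0.00439), the call was lost without any 1 nontransgenic array (adjusted p up to 0.0153), and the other 2 probe sets gave 1.45 and 1.51 with adjusted p of 0.0114 and 0.0223. The brightest Tpi1 probe set can bind similar transcripts by its design.

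The other enzymes passed no test. Gapdh, read from its 3′ control probe set, was at 2643 to 3577 in nontransgenic B cells, 1909 to 3774 in Eμ-xbp-1s B cells and 2575 to 6680.0 in MM. Pgam1, phosphoglycerate mutase, was at 614 to 926, 595 to 1052 and 705 to 2320.3 in the same order, with a log2 difference of 1.04 ± 0.29 between MM and nontransgenic B cells (adjusted p = 0.0238). Pkm, pyruvate kinase, was at 1059 to 1828, 849 to 2314 and 870.1 to 4315. In each of these, replicate 6 was the lowest MM array. Without it Gapdh, Pgam1 and Pkm had adjusted p of 0.00251, 0.00118 and 0.00964 against nontransgenic B cells.

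The 3 phosphofructokinases, which set the pace of glycolysis, were split. Pfkl was at 298 to 467 in nontransgenic B cells, 252 to 509 in Eμ-xbp-1s B cells and 227 to 806 in MM. Pfkp was at 301 to 440 and 289 to 636 in the B cell groups and at 1227, 1347, 1018, 419, 292 and 166 in MM, high on replicates 1 to 3 only. Pfkm, the muscle form, was at 140.1 to 265 and 129.8 to 313 in B cells, and in MM at 132 to 167 on replicates 1 to 3 and at 373 to 451 on replicates 4 to 6. Pfkp and Pfkm were thus high on different MM arrays, and none of the 3 passed a test. The B cell groups were split by array as well. On replicates 1 and 2, Pfkm was at 140.1 and 143 in nontransgenic and 129.8 and 151 in Eμ-xbp-1s B cells. On replicates 3 to 5 it was at 205 to 265 and 228 to 313. Pfkp was higher on replicates 1 and 2 than on replicates 3 to 5 in both B cell groups.

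Aldoa was at 1399 to 2245 in nontransgenic B cells, 1441 to 2599 in Eμ-xbp-1s B cells and 1193 to 3394 in MM. Aldoc, the brain aldolase, was at 101 to 167 on every array. Eno2, the neuronal enolase, was at or under 50 on all 16 arrays and was not tested.

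Pdk1 was the 1 gene of the list past the test between the B cell groups. PDK1 phosphorylates pyruvate dehydrogenase and so holds pyruvate back from the mitochondria. Its intensity was 214, 335, 218, 219 and 185 in nontransgenic B cells. It was 517, 413, 465, 611 and 408 in Eμ-xbp-1s B cells. All Eμ-xbp-1s arrays were above all nontransgenic ones, at a log2 difference of 1.06 ± 0.18 (adjusted p = 0.00307), 2.08-fold. Of its 4 probe sets, 2 passed and the others gave 0.49 and 0.78 with adjusted p of 0.0120 and 0.0382. The call was lost without any 1 of nontransgenic replicates 1, 3, 4 and 5 (adjusted p up to 0.0119), and without both Eμ-xbp-1s replicates 3 and 4 (log2 difference 0.95, adjusted p = 0.0191). In a single fit of the 3 groups it was lost as well (adjusted p = 0.0946).

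In MM, Pdk1 was at 479, 313, 353, 165, 290 and 128, spread over the ranges of both B cell groups and beyond them. It was lower than in Eμ-xbp-1s B cells by the mean (log2 difference -0.87 ± 0.31) without passing the test (adjusted p = 0.0971), and 1 of its 4 probe sets did pass as lower (-1.21, adjusted p = 0.00762). The sign was opposite to that of the glycolytic enzymes, of which 13 of 13 tested had a positive difference in the same comparison. T cell markers, at a summed intensity of 510 to 670.2 in nontransgenic B cells, 4995 to 6185 in Eμ-xbp-1s B cells and 450 to 3754 in MM, were also highest in the group where Pdk1 was highest. Their part in the Pdk1 difference was not tested.

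P4ha1, which encodes a collagen prolyl hydroxylase subunit and is a HIF target, rested just outside the threshold in the same comparison. It was at 73.7 to 150.4 in nontransgenic B cells and 176 to 268 in Eμ-xbp-1s B cells, with no overlap (log2 difference 0.99 ± 0.20, adjusted p = 0.0110). With the replicate number as a block it passed (adjusted p = 0.00601) and so did Pdk1 (adjusted p = 0.00612), and P4ha1 also passed with a floor of 100 and with quantile normalization (adjusted p = 0.00761 and 0.00865). In MM it was at 295, 308, 317, 299, 279.6 and 74.9, so 5 arrays were close to each other and replicate 6 lay within the nontransgenic range.

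Pfkfb3 makes fructose 2,6-bisphosphate, the activator of phosphofructokinase, and is known as a HIF target. It was at 152, 174, 135, 150.1 and 113 in nontransgenic B cells and at 247, 217, 75.0, 199 and 185 in Eμ-xbp-1s B cells. MM gave 329, 373, 327, 259, 194 and 121. Eμ-xbp-1s replicate 3 was the lowest of all arrays and the other 4 were above every nontransgenic array. Pfkfb3 passed no test, at an adjusted p of 0.0548 between MM and nontransgenic B cells. Pfkfb4, its relative, was at 301 to 364 in nontransgenic B cells, 103 to 467 in Eμ-xbp-1s B cells and 271 to 400 in MM.

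No gene of glucose uptake or lactate export passed a test. Slc2a1 encodes GLUT1, the HIF-induced glucose transporter. It was at 355, 374, 420.0, 402 and 418 in nontransgenic B cells and at 379.9, 389.7, 294, 260 and 306 in Eμ-xbp-1s B cells. In MM it was at 419, 414, 377, 852, 753 and 355. Replicates 4 and 5 stood apart, and the other 4 MM arrays were inside the nontransgenic range. The log2 difference of MM was 0.34 ± 0.24 from nontransgenic B cells (adjusted p = 0.344) and 0.62 ± 0.26 from Eμ-xbp-1s B cells (adjusted p = 0.144).

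The same MM arrays, replicates 4 and 5, stood apart for 4 more genes. Slc2a3, the high-affinity glucose transporter GLUT3, was at 440.0 to 567 in nontransgenic B cells and 434 to 889.9 in Eμ-xbp-1s B cells. In MM it was at 230.1, 389, 729, 2582, 2090.2 and 177. Slc16a3, the lactate exporter MCT4, was at or under 50 on 5 of 5 nontransgenic arrays and at 34.0 to 75.0 in Eμ-xbp-1s B cells, and in MM at 82.4, 97.4, 63.4, 623, 246 and 46.0. It was above 100 on too few arrays to be tested.

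Hk1, the hexokinase of most tissues and of red cells, was at 438 to 656 in nontransgenic B cells and 657 to 987 in Eμ-xbp-1s B cells, which did not overlap (log2 difference 0.55 ± 0.16, adjusted p = 0.0663). Its MM values were 521, 591, 641, 1596, 2336 and 678. Mxi1 was at 244, 248, 286, 1170.3, 1656 and 375 in MM. Without both replicates 4 and 5, the log2 difference of MM from nontransgenic B cells fell from 0.67 to 0.12 for Hk1, from 0.84 to 0.08 for Mxi1, from 0.34 to -0.01 for Slc2a1 and from 0.36 to -0.58 for Slc2a3. None of the 4 had passed the test with them.

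**Figure D4:**
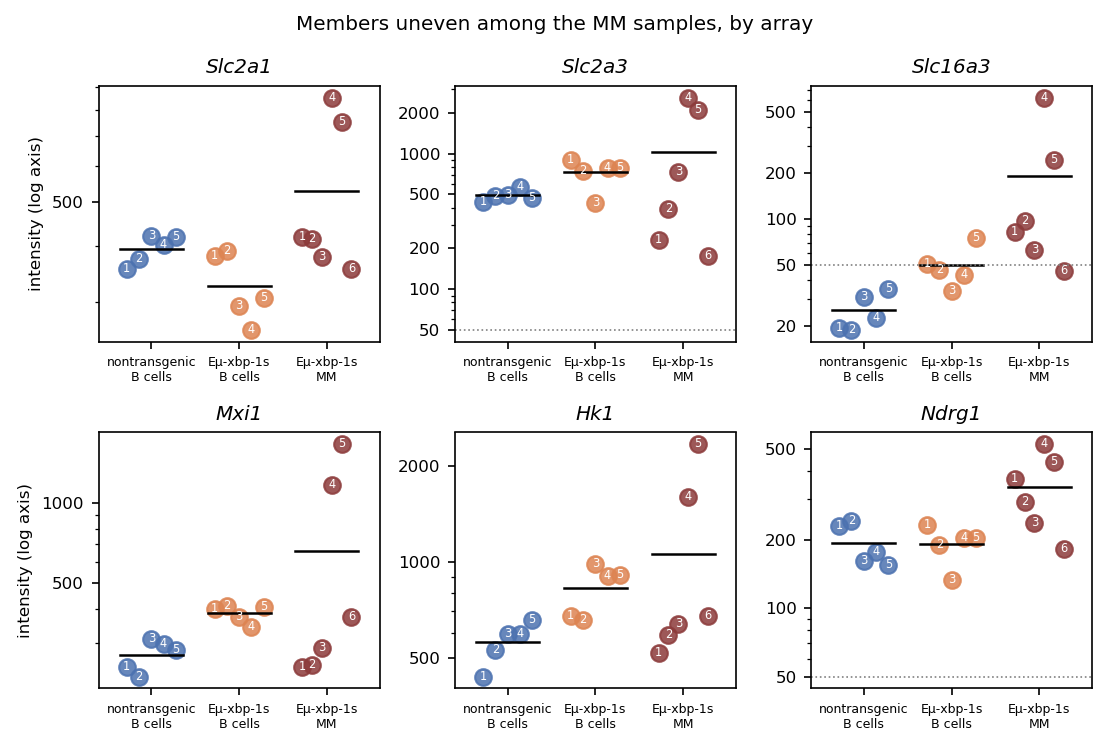
Intensity of 6 genes of uneven level among the MM samples, by array (log axis). Points, numbers and lines are as in the plot of changed genes. MM replicates 4 and 5 are the 2 highest of all 16 arrays in each panel, for example 852 and 753 for Slc2a1 against 420.0 or less on every B cell array.

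Markers of other cells were higher on those arrays. The mean log2 intensity of 7 erythroid markers was 10.30 and 11.03 on MM replicates 4 and 5, where it was 5.77 to 6.13 on the other 4 MM arrays, 5.64 to 6.07 in nontransgenic B cells and 6.52 to 8.76 in Eμ-xbp-1s B cells. Their summed intensity was 19995 and 30061, against 481 or less on the other MM arrays. Neutrophil markers, 10 genes, were at a summed intensity of 70918 and 49292 against 690.1 to 1739 on the other MM arrays. Alas2, which starts heme synthesis in red cell precursors, was at 6037 and 6599 on these arrays. Hba-a1, the 1 erythroid marker at or under 50 there, was at 4.48 and 18.5. Among the Eμ-xbp-1s B cells the erythroid sum was highest on replicate 3 (9077), where Hk1 was the highest of its group, Slc2a3 and Slc16a3 were the lowest, and Slc2a1 and Mxi1 the second lowest. At the same time B cell markers were at a summed intensity of 1270.1 and 619, against 6000 to 13246 on the other MM arrays. The part of red cell precursors and neutrophils in these levels was not tested.

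With MM replicates 4 and 5 both left out, 5 genes stayed higher in MM than in nontransgenic B cells. These were Epas1, Pgk1, Ldha, Bnip3 and Vegfa, all among the original 8. Egln3, Hk2 and Tpi1 kept log2 differences of 1.30, 1.42 and 1.53 with adjusted p of 0.0157, 0.0283 and 0.0103. Against Eμ-xbp-1s B cells, Bnip3 and Vegfa passed without them and Epas1 did not (adjusted p = 0.0204).

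MM replicate 6 was the lowest MM array for 20 of the 32 genes and the highest for 6. Without it, the count of genes higher in MM rose from 8 to 14 against nontransgenic B cells and from 3 to 8 against Eμ-xbp-1s B cells, the original 8 and 3 among them. The share of all genes past the test in fits without an array was not counted, so the rise may not be particular to these genes. The 6 added against nontransgenic B cells were Hif1a, Gapdh, Pgam1, Pkm, Pfkfb3 and P4ha1, and the 5 added against Eμ-xbp-1s B cells were Hk2, Tpi1, Pgk1, Pgam1 and Ldha. Replicate 6 also had the lowest level of dividing-cell markers among the MM arrays, at a mean log2 intensity of 8.50 against 9.24 to 10.96, and the B cell arrays were at 6.77 to 8.25. Of the RNA controls, its 5′ to 3′ ratio of Actb was the lowest of MM at 0.628, while that of Gapdh was lower on replicate 5, at 0.667 against 0.717. The part of cell division and of RNA quality in its low values was not tested.

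Eμ-xbp-1s B cell replicate 3 was likewise the lowest of its group for 17 of 32 genes, and replicate 1 the highest for 18. Replicate 3 was at 453 for Hif1a where the others were at 857 to 1022, and at 75.0 for Pfkfb3 where the others were at 185 to 247. It was also the array with the lowest Gapdh ratio. Eμ-xbp-1s replicate 4, at a ratio of 0.508, was the lowest of its group for 2 genes. Nontransgenic replicate 5, at a ratio of 1.093, was the lowest of its group for 15. Whether the low values of Eμ-xbp-1s replicate 3 came from its RNA was not tested.

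**Figure D5:**
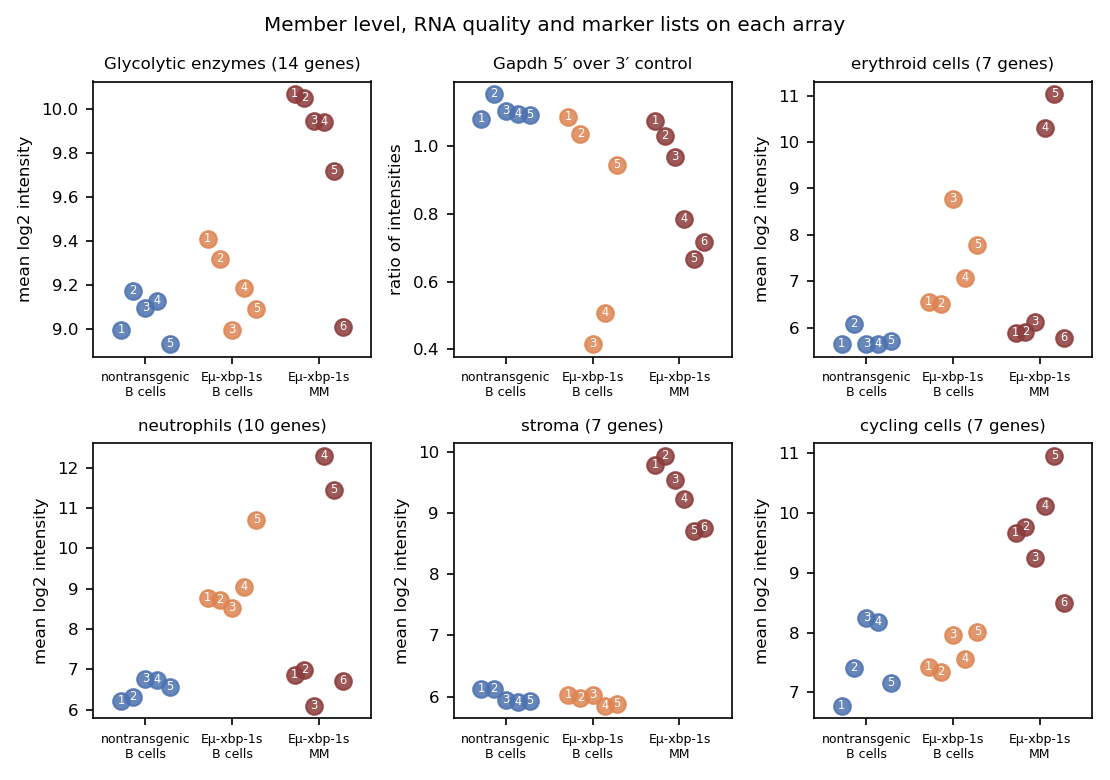
Summaries by array, with points numbered by replicate: the mean log2 intensity of the 14 glycolytic enzymes, the 5′ over 3′ intensity ratio of the Gapdh control, and the mean log2 intensity of markers of erythroid cells, neutrophils, stroma and cycling cells. The enzymes are at 9.72 or more on MM replicates 1 to 5 and at 9.01 on replicate 6, erythroid and neutrophil markers are high on MM replicates 4 and 5, and stromal markers are above 8.7 on all 6 MM arrays.

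The remaining targets showed no common direction. Ndrg1, a stress-induced gene raised by hypoxia, was at 154 to 242 in nontransgenic B cells, 132 to 232 in Eμ-xbp-1s B cells and 182 to 525 in MM, and passed no test at its brightest probe set (MM against nontransgenic, log2 difference 0.76 ± 0.27, adjusted p = 0.0608). Of its 5 probe sets, 2 did pass there, at 2.05 and 2.49 (adjusted p = 0.00338 and 0.00301), and the latter also passed between the B cell groups (1.14, adjusted p = 0.00207). Ddit4, an inhibitor of mTORC1, was at 541 to 1982 in nontransgenic B cells, 1069 to 2540.1 in Eμ-xbp-1s B cells and 304 to 1925 in MM. Ankrd37, a small ankyrin protein induced by HIF, ran the other way, at 111 to 236, 66.0 to 163 and 32.5 to 148, with a log2 difference of -0.88 ± 0.29 between MM and nontransgenic B cells (adjusted p = 0.0501). Adm, the vasodilator adrenomedullin, was at 22.7 to 128 over the 16 arrays and was not tested.

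In 4 lists of other genes of these pathways, 0 to 2 genes of a list passed as higher in each comparison. Of 34 further hypoxia-responsive genes, 28 were tested between MM and Eμ-xbp-1s B cells and 1 was higher, Angptl4, which encodes a secreted inhibitor of lipoprotein lipase (320 ± 182.8 (SD, n = 6) against 71.8 ± 14.7 (SD, n = 5), log2 difference 1.99 ± 0.34, adjusted p = 0.00437). This was 3.57%, against 1.49% of all genes, and at an unadjusted p under 0.05 the counts were 6 higher and 2 lower. Against nontransgenic B cells, 2 of 27 were higher and 1 was lower, the higher ones being 7.41% where the share of all genes was 4.65%, and 11 were higher and 3 lower by unadjusted p under 0.05. The higher ones were Angptl4 (at least 2.41 ± 0.33, adjusted p = 0.000396) and Plod1, a collagen lysyl hydroxylase (1.15 ± 0.25, adjusted p = 0.0075), and the lower one was Zfp395 (-0.74 ± 0.14, adjusted p = 0.00411). Angptl4 entered both MM tests only through its MM arrays and so had to lie higher in MM, and the shares are a description. Between the B cell groups 0 of 24 passed by limma, while 2 were higher and 0 lower by unadjusted p under 0.05. The median log2 difference of these genes was -0.01 between MM and Eμ-xbp-1s B cells and 0.41 between MM and nontransgenic B cells, against 0.01 over all genes in both.

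Of 21 other isoforms and branch enzymes of glycolysis, 1 of 13 tested was higher in Eμ-xbp-1s than in nontransgenic B cells (7.69%, against 3.26% of all genes). This was Slc16a1, the lactate carrier MCT1, at 238 ± 75.9 against 111 ± 14.6 (SD, n = 5 each; log2 difference 1.05 ± 0.21, adjusted p = 0.0084). In MM it spanned 173 to 2448. Slc2a4, the insulin-regulated transporter GLUT4, was the 1 of 14 higher in MM than in nontransgenic B cells (7.14%, against 4.65% of all genes). It was at 154 ± 75.8 against 48.1 ± 14.3 (log2 difference 1.36 ± 0.30, adjusted p = 0.00805). Slc2a4 entered that test only through its MM arrays and so had to lie higher in MM. Between MM and Eμ-xbp-1s B cells 0 of 14 passed, while by unadjusted p under 0.05 the counts were 2 higher and 2 lower. Bpgm, the enzyme of the red cell shunt, was at 525 to 849 in nontransgenic B cells and reached 2401 in Eμ-xbp-1s B cells and 2772 in MM.

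The genes that carry pyruvate into the mitochondrion and those of the pentose phosphate pathway did not pass in any comparison. Of 13 pyruvate genes, 8, 9 and 10 were tested between the B cell groups, between MM and Eμ-xbp-1s B cells and between MM and nontransgenic B cells, and 0 passed by limma. At an unadjusted p under 0.05, 0, 3 and 3 were higher and 1, 0 and 1 lower. All 6 measured pentose phosphate genes were tested, and 0 passed by limma, while 2, 0 and 1 were higher and 0, 1 and 1 lower by unadjusted p under 0.05.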

How the data were processed

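Total RNA of the 16 samples was hybridised to Affymetrix whole-genome mouse arrays. The deposited values are linear intensities, 1 per probe set and array, which the authors made in dChip from perfect match minus mismatch probes after normalizing every array to a baseline array of median intensity. No batch or scan date was given in the sources used here, and no presence calls were used. Columns of other samples numbered 0.

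The table held 45101 probe sets. After 61 control probe sets were left out, with the 3 Gapdh controls kept as probe sets of that gene, 34958 of 45040 had 1 gene in the platform annotation and 932 had several and were not named. Values under 50 were set to 50 and log2 taken, so that fold changes of dim genes are understated. A probe set was tested if over 20% of the arrays in the comparison read above 100. The tests used limma 3.58.1 in R 4.3.3 (lmFit, eBayes), each pair of groups in a separate fit, adjusted by the Benjamini-Hochberg method over all probe sets tested (20599, 22197 and 21897 in the comparisons of B cells, of MM with Eμ-xbp-1s B cells and of MM with nontransgenic B cells) at 0.01. The methods of the study name SAM, in whose place limma was used. The fits were tested on simulated data. A difference is called a lower bound where most arrays of the lower group were at or under 50. Their number, 5 or 6 arrays a group, limits the precision.

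The members, the other gene lists and the rule for named genes were chosen with earlier results of these data known. Values on every array are given for genes past the test with no overlap or in 2 comparisons and for Hif1a, Epas1, Vegfa, Slc2a1, Hk2, Pfkfb3, Pdk1, Ldha and Bnip3, and the others by range. The further pathway genes and cell type markers were described by counts.

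The B cell groups share replicate numbers in the labels. Between nontransgenic and Eμ-xbp-1s arrays of the same number, the deviations from group means correlated at 0.498, 0.519, 0.21, 0.171 and 0.496 over probe sets. Each was over 0.1, which does not establish that the numbers pair these arrays. The reported fits carry no block, and the replicate number was fitted as a block only in an alternative run. Arrays of different numbers correlated as well in places, at up to 0.586, with replicates 1 and 2 on one side and 3 to 5 on the other, so the block may stand for that split and not for single pairs. The same check gave -0.272 to 0.446 and -0.257 to 0.32 for MM, which was not taken as paired. Alternatives covered the floor, the filter, quantile normalization, a single fit of all groups, the replicate block, the mean of probe sets, the threshold, and leaving out arrays. Figures were drawn with matplotlib 3.10.9.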

Additional observations from a re-analysis of the deposited data

Results flagged for a closer look

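In 12 of 85 groups of arrays tested by gene, 1 array stood apart from the rest of its group by Dixon's criterion at the 95% level, where chance flags about 1 in 20. Of these, 6 were low values of MM replicate 6: Hif1a at 290.3 (others 1136 to 2048), Epas1 at 119.2 (653.5 to 1056), Hk2 at 99.78 (311.8 to 460.5), Pgk1 at 2973 (4512 to 5153), Ldha at 2904 (4371 to 4967) and P4ha1 at 74.86 (279.6 to 316.8). A further 3 were low values of Eμ-xbp-1s B cell replicate 3, namely Hif1a at 452.9 (856.8 to 1022), Slc2a3 at 434.2 (748.4 to 889.9) and Pfkfb3 at 75.0 (184.5 to 246.8). Nontransgenic replicate 2 was high for Egln1 at 297.5 (244.3 to 256.9) and for Pdk1 at 335.3 (184.8 to 218.8). MM replicate 1 was low for Ddit4 at 304.3 (1137 to 1925). These flags are not independent, since 1 array gives several of them.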

How the results depend on the processing

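No gene of the list passed as lower in any alternative run. The share of all genes past the test was not counted in these runs, so the counts below are a description. Higher in Eμ-xbp-1s than in nontransgenic B cells were 2 genes with a floor of 100, 0 without the filter, 2 with quantile normalization, 0 in a single fit of the 3 groups, 2 with the replicate block, 2 with probe sets averaged and 4 at 0.05, against 1 in the fit reported. Leaving out 1 array gave 0 to 2. Without replicates 1 and 2 of both groups, an alternative chosen after seeing the data, 3 passed, and without Eμ-xbp-1s replicates 3 and 4, also chosen so, 1 passed, Slc2a3 and not Pdk1.

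Against Eμ-xbp-1s B cells, 3 genes were higher in MM as reported, 2 with a floor of 100 (Bnip3 and Pgk1, with Epas1 and Vegfa lost), 1 without the filter, 5 with quantile normalization, 6 in the single fit and 7 at 0.05. Leaving out 1 array gave 1 to 8. Without Eμ-xbp-1s replicates 3 and 4 it was 0, with 3 arrays left in that group. Against nontransgenic B cells the count was 8 as reported, 5 with a floor of 100, 5 without the filter and 5 without both MM replicates 4 and 5, and 5 to 14 when 1 array was left out. The cause of these differences was not tested, except that the fits with no filter adjust over more probe sets.

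The MM arrays share only numbers with the B cell arrays. The replicate block gave 3 genes against Eμ-xbp-1s B cells (Bnip3, Epas1 and Tpi1) and 14 against nontransgenic B cells, and it drops MM replicate 6, which has no partner. Besides P4ha1, the block changed no call of these genes in the B cell comparison.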
